A study of Mus musculus with 12 samples.

Results

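The transcripts of the mitochondrial genome were examined in the striatum of mice that lack TAAR5 and of littermates that carry it. Members were all features of the deposited count table whose symbol starts with mt-, which gave 37 genes among 57132 features, each of them on the mitochondrial chromosome M. They comprised 13 messenger RNAs (mRNAs), 2 ribosomal RNAs (rRNAs) and 22 transfer RNAs (tRNAs). The TAAR5-KO group lacks trace amine-associated receptor 5 and the WT group carries the intact gene, both as C57Bl/6 littermates of 10 months with no drug treatment. There were 6 libraries per genotype, each from the striatum left after the cortex was taken off a coronal slice. Males and females were used, but the columns of the table, NK1 to NK6 for TAAR5-KO and NK7 to NK12 for WT, are tied neither to an animal nor to a sex. The knockout is constitutive, so a difference in a striatal cell could not be told apart from one that began elsewhere. In such bulk RNA, fewer cells of a type and less RNA per cell cannot be told apart either.

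The mammalian mitochondrial genome is a small circle that is copied into RNA from both strands as long precursors. Most tRNAs sit between the rRNAs and the mRNAs, and their excision releases the neighbouring transcripts. The mRNAs encode core subunits of respiratory complexes I, III and IV and of the ATP synthase, whose other subunits are encoded in the nucleus, and the 12S and 16S rRNAs form the mitochondrial ribosome that translates them. Neurons depend heavily on this respiration for their ion gradients and for synaptic transmission.

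The libraries held 11269915 to 34824450 counts each. Nuclear 18S rRNA (Rn18s-rs5), which the depletion step was meant to remove, took 61.3% (NK7) to 84.7% (NK3) of them, and averaged 79.6% ± 5.35 in libraries labelled TAAR5-KO and 74.3% ± 9.44 in those labelled WT (SD, n = 6 each). The targeted gene Taar5 had 1 to 6 counts in every library labelled TAAR5-KO and 0 to 2 counts in those labelled WT, with 0 counts in 4 of the latter. These counts went against the labels, but all except the 6 of NK6 were at or below the floor of 3 counts used here. What sequence the knockout allele leaves was not examined. The counts do not decide the labels, and genotypes are given here as labels only. All 10 markers of spiny projection neurons, the principal striatal neurons, passed the filter on low values, with summed levels of 370 to 481 counts per M counts (CPM) in libraries labelled TAAR5-KO and 220 to 409 CPM in those labelled WT. The 4 choroid plexus markers, of a tissue beside the striatum, summed to 1.07 to 458 CPM and 1.99 to 279 CPM, respectively. Of 6 microglial markers, 2 were lower in libraries labelled TAAR5-KO (0.691% of all features were called lower and 0.957% higher), and the list summed to 25.1 to 36.2 CPM there and to 34.9 to 43.4 CPM in those labelled WT. Against the same background, 1 of 7 astrocyte markers was lower and 1 of 5 blood markers was higher, while no member of the oligodendrocyte, endothelial, ependymal, choroid plexus, cortical or spiny neuron lists was called. The part of these cell types in the values below was not tested.

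All 37 genes had the same start, end and strand in the GRCm39 annotation used here (GENCODE M39) as in the deposited table. They lie close together on a circle of 16299 bases, 28 on the plus and 9 on the minus strand of the reference, and none of them has an intron. Their crowding decides which reads a counter can give to a single gene. For each gene, the stretches of 100 bases, the length of a read, were therefore counted that touch this gene alone on either strand and that have no exact second copy in the nuclear genome. They are called assignable windows here. How the authors' counting treated strand, overlaps and reads with several matches is not stated, so windows were set beside the counts as a description.

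The tRNAs show the crowding most plainly, and the stretch from mt-Tn (asparagine tRNA) to mt-Tc (cysteine tRNA) is printed because the gap between them, in capitals, is the origin of light strand replication and leaves each tRNA a few windows. It is given on the plus strand of chrM:5089-5257 in GRCm39, whereas both tRNAs are on the minus strand.
mt-Tn to mt-Tc: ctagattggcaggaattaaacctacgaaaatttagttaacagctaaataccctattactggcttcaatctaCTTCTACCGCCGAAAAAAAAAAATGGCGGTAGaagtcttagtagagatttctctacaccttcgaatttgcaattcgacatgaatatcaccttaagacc

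The proline tRNA mt-Tp borders the control region, where no other gene is annotated, and is printed whole, in capitals and on its own minus strand, because it drew most of the tRNA counts (chrM:15356-15422, GRCm39).
mt-Tp: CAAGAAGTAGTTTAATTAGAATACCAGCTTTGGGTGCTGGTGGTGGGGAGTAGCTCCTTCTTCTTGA

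Counts on tRNAs followed this layout. Over the 12 libraries, the 22 tRNAs had 3671 counts, of which 3169 (86.3%) were on mt-Tp with its 67 windows. mt-Tn, with 6 windows, had 357 counts and mt-Tc, with 1 window, had 92. These were the only tRNAs with an assignable window. Of the other 19, the phenylalanine tRNA mt-Tf, the first gene of the annotated sequence, had 52 counts, the glutamate tRNA mt-Te had 1 and 17 had none in any library. A count that used strand would give 8 more tRNAs a window, and these 8 together had 1 count. Mature tRNAs are shorter than a read of 100 bases.

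The mRNAs with hardly any counts were likewise those with few windows or none. The mRNAs of complex IV subunits mt-Co2 (chrM:7013-7696) and mt-Co3 (chrM:8607-9390), of the ATP synthase subunits mt-Atp8 (chrM:7766-7969) and mt-Atp6 (chrM:7927-8607) and of the complex I subunit mt-Nd4l (chrM:9877-10173) had 0 assignable windows and 10 counts in all. mt-Co3 and mt-Atp8 had none in any library, mt-Atp6 had 5, mt-Co2 had 3 and mt-Nd4l had 2. A further complex I subunit, mt-Nd3 (chrM:9459-9806), had 3 windows and 29 counts. The remaining 7 mRNAs, with 406 to 1711 windows each, held 5624604 counts. A level of these 6 mRNAs could therefore not be read from the table, where a count of 0 allows up to 3. Whether their reads were set aside for a second match was not tested.

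Across the mitochondrial genome, 4788 of 16200 windows (29.6%) had an exact nuclear copy, most of them in a single segment. Of 42 nuclear segments found by similarity, the longest was on chromosome 1 from 24650616 to 24655269, on the minus strand, and matched positions 6390 to 11042 of the mitochondrial genome at 99.9% identity over 4654 aligned bases. It differed by 2 substitutions, A6393T in mt-Co1 and T9461C in mt-Nd3 (mitochondrial base first, position counted from 1 on chromosome M, then the base of the copy on the same strand), and by a single-base gap in mt-Tr. The windows with an exact copy made up 100% of those of mt-Co2, mt-Atp8 and mt-Atp6, 96.7% for mt-Co3, 89.1% for mt-Nd4l, 61.3% for mt-Nd4 and 36.4% for mt-Co1. They made up 0% for mt-Rnr1, mt-Nd1, mt-Nd5, mt-Nd6 and mt-Cytb. The bases around T9461C are printed because, in the reference genome, they hold the only listed difference between mt-Nd3 and its copy. Which base these mice carry there was not examined. The differing base is in capitals, from chrM:9441-9481 on the plus strand and chr1:24652178-24652218 on the minus strand of GRCm39.
mt T9461C: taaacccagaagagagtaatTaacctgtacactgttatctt
copy T9461C: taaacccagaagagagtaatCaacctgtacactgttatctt

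Inside this segment, mt-Atp8 and mt-Atp6 also overlap each other. Both are read from the same RNA in different frames, and their start is printed from the plus strand of chrM:7766-7986 with the shared bases in capitals, as the longest overlap between mitochondrial mRNAs.
mt-Atp8 to mt-Atp6: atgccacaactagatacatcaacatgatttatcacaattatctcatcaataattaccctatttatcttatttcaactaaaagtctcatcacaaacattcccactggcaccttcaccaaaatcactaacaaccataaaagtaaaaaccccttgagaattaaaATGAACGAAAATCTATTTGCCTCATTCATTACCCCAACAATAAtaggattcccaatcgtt

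**Figure D1:**
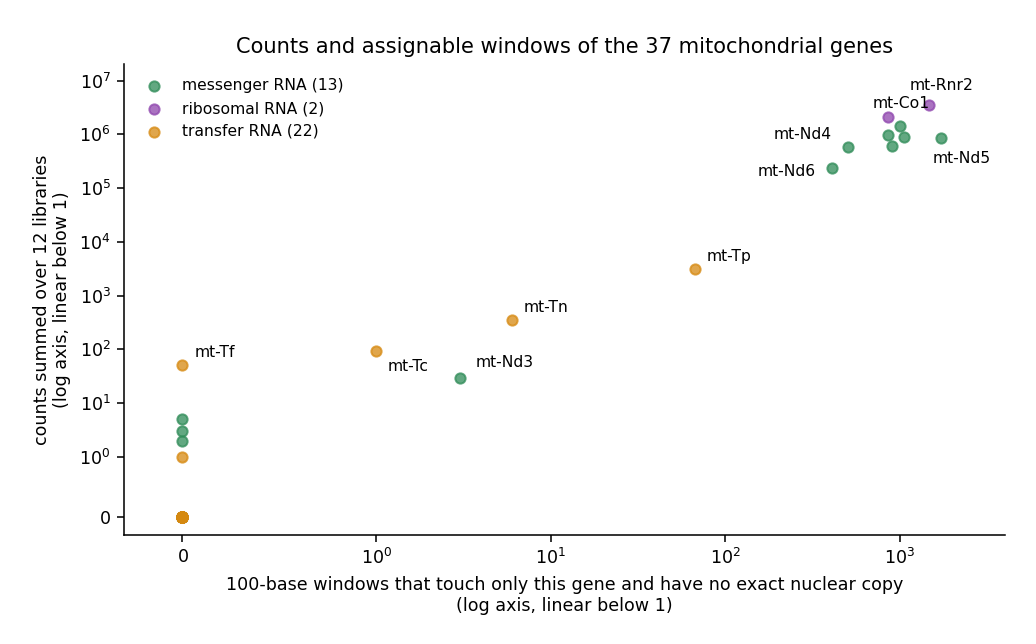
Each point is a mitochondrial gene, with its number of assignable windows of 100 bases on the x axis and its counts summed over the 12 libraries on the y axis (both log axes, linear below 1), coloured by RNA class. The 9 genes with 406 or more windows had 234544 to 3459255 counts, whereas every mRNA without a window had 5 or fewer.

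Among the transcripts that could be counted, rRNAs and mRNAs took equal parts and tRNAs almost nothing. Of 11220040 mitochondrial counts, which were 4.84% of all counts, 50.1% were on mRNAs, 49.8% on rRNAs and 0.0327% on tRNAs. This even split was not a feature of the single libraries. The mRNA part of the mitochondrial counts ran from 19.7% in NK1 to 80.1% in NK5 among libraries labelled TAAR5-KO and from 27.4% in NK9 to 79.1% in NK12 among those labelled WT. The rRNAs exceeded the mRNAs in 3 of 6 libraries labelled TAAR5-KO and in 2 of 6 labelled WT. The RNA had been depleted of rRNA, and whether this step also took mitochondrial rRNAs is not stated. Counts of the 2 mitochondrial rRNAs, here and below, are those left after it and need not follow their levels in the tissue.

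Levels of the genes were compared per length, first as CPM per kilobase (CPM on library sizes scaled by the trimmed mean of M values, TMM). The 16S rRNA mt-Rnr2 (ENSMUSG00000064339.1, chrM:1094-2675) had a median of 5995 CPM per kilobase over the 12 libraries, with a range of 2632 to 32582. The 12S rRNA mt-Rnr1 (ENSMUSG00000064337.1, chrM:70-1024) had a median of 5906, with a range of 1299 to 40264. The range of mt-Rnr1 covered that of 6 of the 7 well-counted mRNAs and the range of mt-Rnr2 that of 3, so that the place of the rRNAs in the order was not fixed.

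The mRNAs kept a tighter order. The complex I subunit mt-Nd1 (ENSMUSG00000064341.1, chrM:2751-3707) led with a median of 4127 CPM per kilobase (3477 to 4938), ahead of the catalytic complex IV subunit mt-Co1 (ENSMUSG00000064351.1, chrM:5328-6872) with 3763 (3001 to 4124). The only mitochondrially encoded subunit of complex III, mt-Cytb (ENSMUSG00000064370.1, chrM:14145-15288), followed with 3214 (2643 to 4137), and the complex I subunit mt-Nd2 (ENSMUSG00000064345.1, chrM:3914-4951) with 2377 (1919 to 3646). Within a library, mt-Nd1 was above mt-Co1 in 12 of 12 libraries, mt-Co1 above mt-Cytb in 11 and mt-Cytb above mt-Nd2 in 12. The last 3 medians were close, at 1942 CPM per kilobase for mt-Nd6 (ENSMUSG00000064368.1, chrM:13552-14070), the only mRNA of the minus strand, 1913 for mt-Nd5 (ENSMUSG00000064367.1, chrM:11742-13565) and 1654 for mt-Nd4 (ENSMUSG00000064363.1, chrM:10167-11544), all of complex I. mt-Nd2 was above mt-Nd6 in 11 of 12 libraries, mt-Nd6 above mt-Nd5 in 5 and mt-Nd5 above mt-Nd4 in 10, so that mt-Nd6 and mt-Nd5 had no set order.

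Counted per assignable window in place of length, the genes inside the nuclear copy changed places. mt-Nd4, last of the 7 mRNAs per kilobase, had a median of 4532 CPM per 1000 windows and stood beside mt-Nd1 with 4614, above it in 6 of 12 libraries. mt-Co1 moved to the top with 5809, above mt-Nd1 in 12 of 12 libraries. mt-Cytb had 3502, mt-Nd2 2721, mt-Nd6 2483 and mt-Nd5 2039. The order of mt-Nd1, mt-Cytb and mt-Nd2 was the same on both scales, and the places of mt-Co1 and mt-Nd4 depended on which scale was used.

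**Figure D2:**
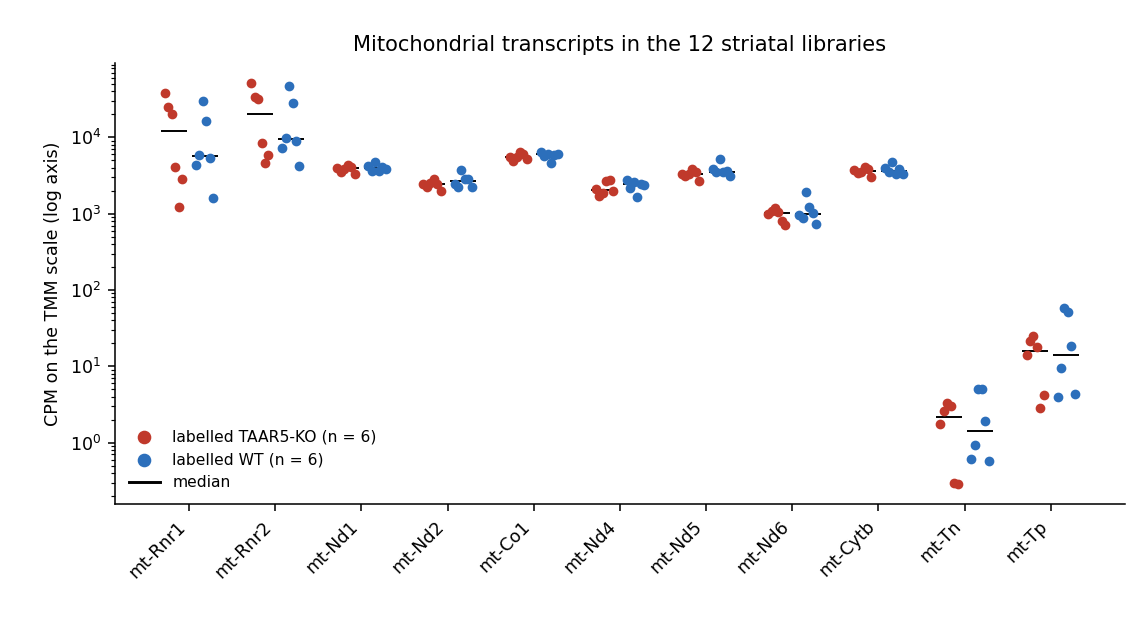
CPM on the TMM scale (log axis) of 11 mitochondrial genes in each of the 12 libraries, coloured by genotype label with the median of each group as a bar. The 7 mRNAs varied up to 2.77-fold between libraries, against 31.0-fold for mt-Rnr1, 12.4-fold for mt-Rnr2 and 20.5-fold for mt-Tp, and in each gene the groups overlapped.

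To ask whether mitochondrial transcripts differ between the genotypes, the counts of all features were fitted together. Of the 37 genes, 12 passed the filter of at least 0.5 CPM in at least 3 libraries, namely both rRNAs, the 7 mRNAs above, mt-Tn, mt-Tc and mt-Tp. None of the 12 was called by the likelihood ratio test of edgeR at a Benjamini–Hochberg adjusted p under 0.1, beside 229 of 13902 features tested (1.65%). Nor was any called by the quasi-likelihood test of edgeR (0.453% of all features) or by DESeq2 (2.57% of the 6893 features with an adjusted p, which 2 of the 12 genes lacked). None had an unadjusted p under 0.05 by this test, by the quasi-likelihood test of edgeR or by DESeq2, while 11.9%, 12% and 9.73% of all features did. In none of the 12 were the groups free of overlap in CPM, which was the case for 1.01% of features. Log2 fold changes are given as labelled TAAR5-KO over labelled WT, and their median was -0.14 over the 12 genes and -0.0061 over all features. P-values here set the difference between the groups against the spread between these libraries.

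The mRNAs gave the most precise comparison. mt-Nd1 had a lowest, median and highest level of 3327, 3950 and 4320 CPM in libraries labelled TAAR5-KO and of 3643, 4005 and 4726 CPM in those labelled WT. mt-Co1 had 4933, 5471 and 6372 CPM against 4636, 5999 and 6342 CPM. For mt-Cytb the levels were 3023, 3677 and 4054 CPM against 3360, 3675 and 4733 CPM. In these 3 genes the groups lay on top of each other, with NK9 highest in mt-Nd1 and mt-Cytb and NK6 lowest. Their log2 fold changes were -0.07 (SE 0.14), -0.05 (SE 0.14) and -0.07 (SE 0.14), with adjusted p = 0.894, 0.937 and 0.902 in the likelihood ratio test of edgeR. With each library left out in turn, mt-Nd1 ran from -0.11 (without NK4) to -0.013 (without NK9), mt-Co1 from -0.099 (without NK10) to -0.0086 (without NK2) and mt-Cytb from -0.11 (without NK4) to 0.013 (without NK9).

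The other complex I mRNAs were similar. mt-Nd2 had 1992, 2444 and 2865 CPM in libraries labelled TAAR5-KO against 2220, 2651 and 3784 CPM in those labelled WT. mt-Nd4 had 1694, 2037 and 2762 CPM against 1657, 2434 and 2734 CPM. mt-Nd5 had 2704, 3292 and 3890 CPM against 3099, 3550 and 5208 CPM. The upper end of mt-Nd2 and mt-Nd5 was set by NK9, a library labelled WT, and the remaining libraries of both groups overlapped. The log2 fold changes were -0.18 (SE 0.16) for mt-Nd2, -0.10 (SE 0.16) for mt-Nd4 and -0.20 (SE 0.15) for mt-Nd5, with adjusted p = 0.705, 0.870 and 0.643 (edgeR). Without NK9, mt-Nd2 and mt-Nd5 were at -0.052 and -0.082, and mt-Nd4 ran from -0.18 (without NK5) to -0.030 (without NK2). mt-Nd6, the minus-strand mRNA, had 701, 1028 and 1202 CPM against 722, 995 and 1943 CPM, with NK9 again highest. In the fit, mt-Nd6 had -0.21 ± 0.21 (log2 fold change ± SE, adjusted p = 0.745, edgeR), and 0.023 without NK9. mt-Nd6 overlaps mt-Nd5 on the other strand by a few bases, and without a stated strand setting reads of antisense RNA from the plus strand cannot be told apart from its own. The 95% intervals of the 7 log2 fold changes lay between -0.62 and 0.23, which bounds a difference of these mRNAs on the TMM scale.

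The rRNAs were far less precise. mt-Rnr1 had a lowest, median and highest level of 1240, 12024 and 38452 CPM in libraries labelled TAAR5-KO and of 1591, 5641 and 29933 CPM in those labelled WT. mt-Rnr2 had 4585, 20260 and 51545 CPM against 4164, 9483 and 47413 CPM. In both groups the libraries divided into high and low, with NK1, NK2, NK3, NK9 and NK10 high. The log2 fold changes of mt-Rnr1 and mt-Rnr2 were 0.53 (SE 0.67) and 0.37 (SE 0.57), with adjusted p = 0.821 and 0.863 (edgeR), and were -0.14 and -0.20 when library size was the only scaling. Without NK9, they were 1.20 and 0.98, and without NK1 they were 0.011 and -0.047. Their 95% intervals ran from -0.78 to 1.83 and from -0.75 to 1.49, so that a change of either rRNA below about that size was not detectable here.

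The tRNAs rested on few counts, and whether these came from mature tRNAs or from longer precursors was not tested. mt-Tp had 68 to 306 counts, or 2.86, 16.1 and 24.8 CPM (lowest, median, highest), in libraries labelled TAAR5-KO and 111 to 535 counts, or 4.00, 13.9 and 58.6 CPM, in those labelled WT. The 2 highest libraries, NK9 and NK10, are labelled WT, and the other 4 of that label lay within the range of the TAAR5-KO group. For mt-Tp the fit gave -0.76 ± 0.58 (log2 fold change ± SE, adjusted p = 0.648, edgeR), -0.27 without NK9 and -0.40 without NK10. mt-Tn, with 7 to 49 counts a library, had a log2 fold change (± SE) of -0.30 ± 0.59 (adjusted p = 0.901), and mt-Tc, with 0 to 14 counts, of -0.54 ± 0.68 (adjusted p = 0.821). Neither passed the threshold of edgeR's test. With a library left out, mt-Tn ran from -0.53 (without NK3) to 0.098 (without NK9) and was 0.091 without NK10, and mt-Tc ran from -1.20 (without NK3) to -0.21 (without NK10).

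Scaling moved all of these values together. When counts were scaled by library size alone, the median over all features became -0.49 and that over the 12 mitochondrial genes -0.56, with 12 of 12 below 0. On the TMM scale, 10 of 12 were below 0, and 7 of 12 without NK9. Relative to the features as a whole, the mitochondrial genes thus stood 0.07 lower on the first scale and 0.13 lower on the second, where without NK9 their median was -0.018 and stood 0.019 lower. None was called on the first scale either, beside 0.0504% of all features.

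**Figure D3:**
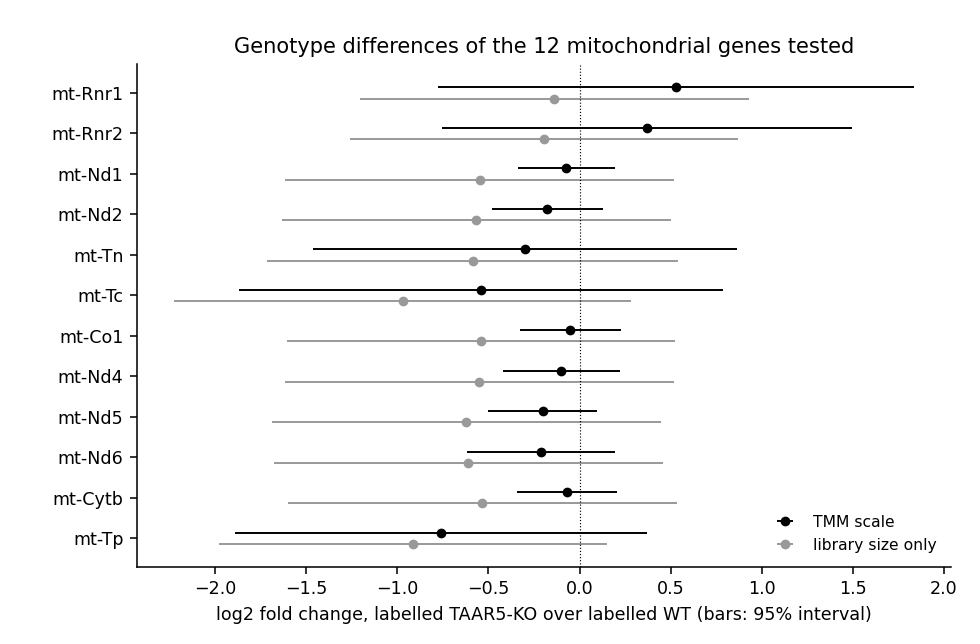
Log2 fold changes of the 12 mitochondrial genes tested, libraries labelled TAAR5-KO over libraries labelled WT, on the TMM scale (black) and with library size as the only scaling (grey), with 95% intervals. All intervals include 0, the mRNA values lie between -0.21 and -0.05 on the TMM scale, and both rRNAs change sign between the scales.

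As shares of a library, which need no scaling factor, mitochondrial transcripts took 3.78% to 5.07% of all counts in libraries labelled TAAR5-KO (mean 4.40% ± 0.549, SD, n = 6) and 4.22% to 8.92% in those labelled WT (5.73% ± 1.78, SD, n = 6). NK7 was the highest, and without it the lead of the WT mean went from 1.33 to 0.696 percentage points. The mRNAs held 2.23% ± 1.42 and 3.28% ± 1.96 of all counts, the rRNAs 2.17% ± 0.946 and 2.44% ± 0.904, and the tRNAs 0.00122% ± 0.000748 and 0.00225% ± 0.00116 (SD, n = 6 each). The difference was smaller than the SD of both groups for mRNAs and rRNAs. For all mitochondrial counts and for tRNAs it was larger than the SD of the TAAR5-KO group and smaller than that of WT. The shares were not tested.

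The spread of the mRNA share depended on the denominator. Of counts outside ribosomal RNA features, the mRNA share had a 2.74-fold range over the 12 libraries, with 11.5% ± 4.37 in libraries labelled TAAR5-KO and 13.3% ± 2.71 in those labelled WT (SD, n = 6 each). Of protein-coding counts, leaving out Lars2, the mRNAs held 15.6% to 22.8% in the 12 libraries, a 1.46-fold range, whereas their share of all counts had a 7.32-fold range. The share of protein-coding counts was 17.7% ± 1.90 in libraries labelled TAAR5-KO and 18.8% ± 2.12 in those labelled WT (SD, n = 6 each), and the groups overlapped, with NK9 highest and NK6 lowest. Lars2, the nuclear gene of the mitochondrial leucyl-tRNA synthetase, was left out because it alone had 43900 ± 39735 CPM in libraries labelled TAAR5-KO and 28999 ± 23557 CPM in those labelled WT (SD, n = 6 each), far above the other synthetases. All synthetases summed, Lars2 included, had 44740 to 107227 CPM in NK1, NK2, NK3, NK9 and NK10, the libraries high in mitochondrial rRNA. In the remaining libraries the sum was 6462 to 24425 CPM. Whether the reads counted on Lars2 came from its mRNA was not tested. The protein-coding denominator was chosen after the data were seen.

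To compare transcripts within a library, ratios of counts of 4 gene pairs were taken, each compared by exact permutation (two-sided, all 924 ways to assign the libraries to 2 groups of 6), with Benjamini–Hochberg adjustment over the 4 pairs. mt-Cytb and mt-Nd1, mRNAs of different complexes from distant parts of the same strand, kept the most constant ratio. It was 0.909, 0.938 and 0.995 (lowest, median, highest) in libraries labelled TAAR5-KO and 0.865, 0.931 and 1.00 in those labelled WT, a 1.16-fold range over all 12. The log2 difference was 0.0069 (exact permutation test, p = 0.842, adjusted p = 0.842). The ratio of the minus-strand mt-Nd6 to the plus-strand mt-Cytb was more variable, with 0.208, 0.262 and 0.337 against 0.215, 0.257 and 0.411. NK9 and NK10 were highest, NK5 was lowest and the groups overlapped, with a log2 difference of -0.10 (exact permutation test, p = 0.602, adjusted p = 0.842).

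The ratio of the 16S to the 12S rRNA was 1.34, 1.84 and 3.70 in libraries labelled TAAR5-KO. In those labelled WT it was 1.58, 1.68 and 2.62. Both rRNAs are cut from the same precursor, and the part of the depletion step in their ratio was not tested. NK5 and NK12 stood above the rest of their groups, and the log2 difference between the groups was 0.08 (exact permutation test, p = 0.755, adjusted p = 0.842). The ratio of mt-Rnr2 to mt-Nd1, an rRNA over an mRNA that follows it on the genome, was 1.12, 5.09 and 12.9 against 1.07, 2.44 and 10.0. This 12.0-fold range was the widest of the 4 pairs, and the log2 difference was 0.38 (exact permutation test, p = 0.662, adjusted p = 0.842). No pair differed between the groups by more than the spread of the libraries.

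The ratio of mt-Rnr2 to mt-Nd1 placed the libraries into 2 sets with a gap between them. In 5 libraries, 3 labelled TAAR5-KO (NK1, NK2, NK3) and 2 labelled WT (NK9, NK10), it was 7.70 to 12.9, and in the other 7 it was 1.07 to 2.69. The 5 libraries had an 18S share of 82.5% to 84.7% of all counts and the 7 had 61.3% to 80.2%. On the TMM scale, mt-Rnr2 had 28036 to 51545 CPM in the 5 and 4164 to 9902 CPM in the 7, whereas mt-Nd1 had 3471 to 4726 CPM and 3327 to 4320 CPM, so that the sets were apart in the rRNA and overlapped in the mRNA. Because the libraries fell into sets, no correlation over all 12 is given for this ratio. Among the 7 libraries, its log2 value and the 18S share had Pearson's r = 0.56 (exact permutation p = 0.183, adjusted over 4 pairs p = 0.183) and Spearman's rho = 0.71 (exact permutation p = 0.0881, adjusted p = 0.117). The 7 were picked by this ratio, which narrows its range, and the other pairs of the adjustment used 12 libraries. Within labels, each of which holds both sets, r was 0.86 in libraries labelled TAAR5-KO (exact permutation p = 0.0444). In those labelled WT, r was 0.86 (exact permutation p = 0.0528).

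The ratio of mt-Nd6 to mt-Cytb was 0.264 to 0.411 in the 5 libraries of higher rRNA ratio and 0.208 to 0.267 in the 7. Its correlation with the 18S share over all 12 libraries therefore spans both sets. Over the 12 libraries, r was 0.69 (permutation p = 0.0132, adjusted p = 0.0528) and rho was 0.81 (permutation p = 0.00205, adjusted p = 0.0082), and r was 0.78 without NK7 and NK12, the libraries farthest from the median share. Within genotype labels, r was 0.89 (exact permutation p = 0.0278) in the 6 libraries labelled TAAR5-KO and 0.79 (exact permutation p = 0.0847) in the 6 labelled WT. Within the 7 libraries of lower rRNA ratio, r was 0.41 (exact permutation p = 0.348), and the other 5 were too few for a value. For mt-Cytb to mt-Nd1, r was 0.53 (permutation p = 0.0768, adjusted p = 0.150) and rho 0.42 (permutation p = 0.176, adjusted p = 0.176), with r = 0.45 without NK7 and NK12. For mt-Rnr2 to mt-Rnr1, r was -0.47 (permutation p = 0.112, adjusted p = 0.150) and rho -0.63 (permutation p = 0.0323, adjusted p = 0.0647), with r = -0.69 without these libraries and r = -0.04 in the 7. The 18S share is a share of a total that holds these genes too, and RNA quality per library was not given in the labels.

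**Figure D4:**
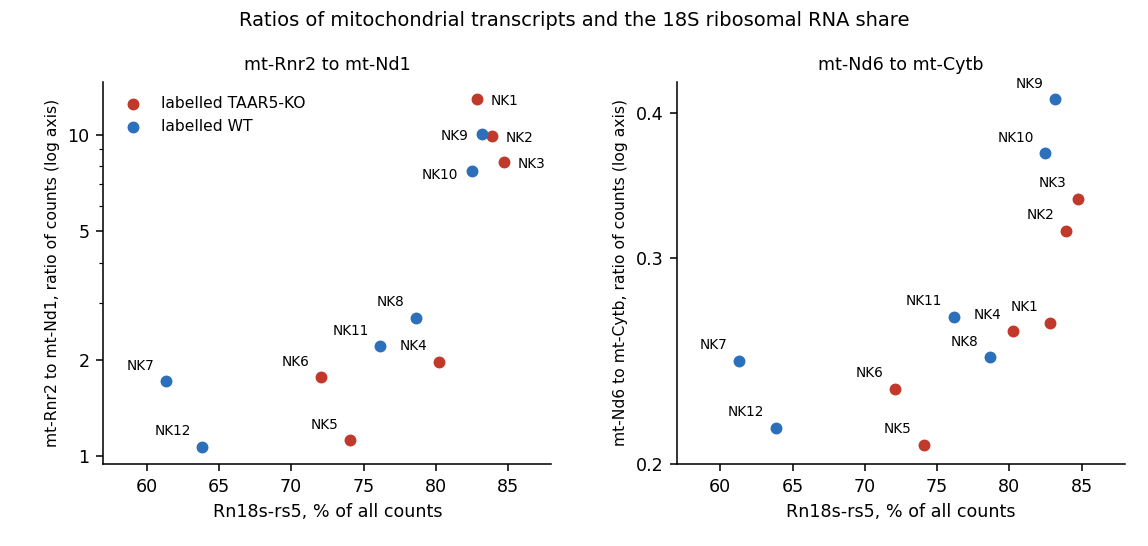
The ratio of counts of mt-Rnr2 to mt-Nd1 (left) and of mt-Nd6 to mt-Cytb (right), both on log axes, against the share of Rn18s-rs5 in all counts (x axis, %), with 1 point per library coloured by genotype label. On the left, 5 libraries from both labels lie at 7.70 or above, at an 18S share of 82.5% or more, and the other 7 lie at 2.69 or below.

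The mRNA mt-Nd3, a small complex I subunit, was set beside its copy in each library. It had 0 counts in 10 libraries, 20 counts in NK10 and 9 counts in NK12, both labelled WT. The pseudogene Gm28438, its copy on chromosome 1 (24651856 to 24652200, minus strand), had 226 to 844 counts in the 10 libraries, 100 in NK10 and 13 in NK12. The neighbouring Gm10222, the copy of mt-Nd4l (chromosome 1, 24651488 to 24651781), had 21 to 120 counts in the 10 libraries, 29 in NK10 and 10 in NK12.

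As a share of the counts of mt-Nd3 and Gm28438 together, mt-Nd3 held 16.7% in NK10 (95% Wilson interval 11.1% to 24.3%) and 40.9% in NK12 (23.3% to 61.3%). In the other 10 libraries it held 0%, which allows a share of up to 0.355% to 1.33% by the floor of 3 counts. These intervals and floors cover counting error only, since the reads carry no molecular identifiers. mt-Nd3 had 3 assignable windows and those of Gm28438 were not counted, so the share is one of counts and not of origin. From which sequence the reads counted on Gm28438 came was not tested. Per 1000 counts of mt-Nd4, the nearest well-counted gene, Gm28438 had 3.44 to 35.2 counts in the 10 libraries, 7.28 in NK10 and 0.122 in NK12, so that NK12 fell below and NK10 within their range. The other 5 annotated features of the copied segment, Gm28437, Gm28439, Gm28661, Gm29216 and Atp6-ps, had at most 7 counts in any library. Only when the filter on low values was dropped was mt-Nd3 tested. It was then called lower in libraries labelled TAAR5-KO (adjusted p = 0.0341, edgeR, beside 0.0985% of all features called lower without the filter), on the counts of these 2 libraries alone, while every library labelled TAAR5-KO was at the floor, so that no fold is given.

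**Figure D5:**
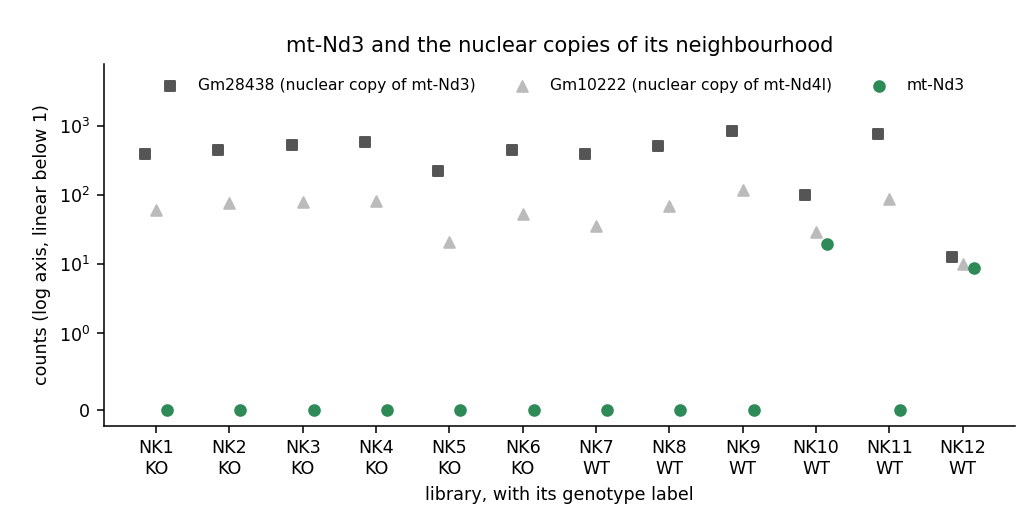
Counts per library (log axis, linear below 1) of mt-Nd3 and of Gm28438 and Gm10222, the nuclear copies of mt-Nd3 and mt-Nd4l on chromosome 1. mt-Nd3 had counts in NK10 (20) and NK12 (9) alone, where Gm28438 had 100 and 13 counts against 226 to 844 elsewhere.

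The nuclear genes that make, process and use these transcripts were read from the same fit, by lists chosen for their function. Of 36 genes of mitochondrial transcription, RNA processing and decay, 34 were tested and none was called in either direction (0.957% of all features were called higher and 0.691% lower). At an unadjusted p under 0.05 were 2 of them, beside 11.9% of all features, and the median log2 fold change was 0.08. Polrmt, the mitochondrial RNA polymerase, had 1.10 ± 0.132 CPM in libraries labelled TAAR5-KO and 1.33 ± 0.227 CPM in those labelled WT (SD, n = 6 each), a log2 fold change (± SE) of -0.26 ± 0.19 (adjusted p = 0.624, edgeR). Tfam, which packages the mitochondrial genome and starts its transcription, and Lrpprc, which stabilises the mRNAs, had log2 fold changes of -0.09 and 0.11. The genes with the smallest p-values of the list were the poly(A) polymerase Mtpap, the exoribonuclease Pnpt1 and Trmt10c, with log2 fold changes of 0.33, 0.27 and 0.25. Trmt10c is a subunit of the enzyme that cuts the 5′ ends of tRNAs. None passed the adjusted threshold.

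Of 14 genes of mitochondrial DNA copying, 13 were tested and none was called, with a median log2 fold change of 0.13. At an unadjusted p under 0.05 were 2 genes, beside 11.9% of all features. The exonuclease Mgme1 had a log2 fold change of -0.53, the single-stranded DNA binding protein Ssbp1 of 0.30 and the deoxyguanosine kinase Dguok of 0.36. All 17 mitochondrial aminoacyl-tRNA synthetases were tested and none was called, with a median of 0.02 and 1 gene at an unadjusted p under 0.05, against the same share of all features. The isoleucine enzyme Iars2 came closest, with a log2 fold change (± SE) of 0.26 ± 0.10 (adjusted p = 0.213, edgeR), followed by Wars2 (-0.34) and Tars2 (0.29). Lars2 had 0.60 (SE 0.57, adjusted p = 0.743, edgeR), and whether its reads came from its mRNA was not tested.

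Of 78 mitochondrial ribosomal proteins, the partners of the 2 rRNAs, 76 were tested and none was called. Their median log2 fold change was -0.09, with 24 above and 52 below 0. At an unadjusted p under 0.05 were 3, beside 11.9% of all features, namely Mrpl58 (log2 fold change -0.37), Mrps10 (0.44) and Mrpl10 (-0.37). Of 85 nuclear subunits of complexes I, III, IV and V, the partners of the mRNAs, 76 were tested and 1 was called lower in libraries labelled TAAR5-KO, beside 0.691% of all features in this direction. Their median was -0.08, against -0.0061 over all features, with 18 above and 58 below 0. At an unadjusted p under 0.05 were 10 of the 76, close to the 11.9% of all features. The called gene was Cox6a1, a complex IV subunit, with 13.9 ± 0.977 CPM in libraries labelled TAAR5-KO and 16.8 ± 1.07 CPM in those labelled WT (SD, n = 6 each), a log2 fold change (± SE) of -0.28 ± 0.085 (adjusted p = 0.0754, edgeR). It was not called by the quasi-likelihood test, and leaving out any of NK1, NK2, NK3, NK5, NK6, NK10, NK11 or NK12 left no subunit called. Next in the list were Cox8a of complex IV (-0.33, adjusted p = 0.261) and Ndufb9 of complex I (-0.26, adjusted p = 0.318), neither of which passed. In both lists, as in the mitochondrial mRNAs, more values were below 0 than above on the TMM scale. The transcription, DNA copying and synthetase lists had 24, 8 and 9 values above 0 and 10, 5 and 8 below. Without NK9, mt-Cytb and mt-Nd6 turned to above 0 (0.013 and 0.023) and the other well-counted mRNAs stayed below. Members of a list are not independent, and the share of all features below 0 was not counted.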

How the data were processed

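Striatal RNA of 12 mice was depleted of ribosomal RNA and sequenced from directional libraries as single-end reads of 100 bases (the labels name the molecule polyA RNA). The authors trimmed the reads with cutadapt 4.1, aligned them to GRCm39 (GENCODE M35) with STAR 2.7.11b and obtained gene counts from featureCounts 2.0.6, versions that are also in the submitters' processing notes, and deposited raw counts per gene, with the gene length as an annotation. Settings for strand, overlapping genes and reads with several matches are not given in the sources used here. A further 12 columns of counts, of other samples, were not used.

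Genotypes were taken from the column names, compared over 6 and 6 libraries without covariates, since no column is tied to an animal or a sex. Features with at least 0.5 CPM in at least 3 libraries were normalized by TMM and compared with glmFit and glmLRT of edgeR 4.0.16 (R 4.3.3), with an adjusted p (Benjamini–Hochberg) under 0.1 taken as a call. The fit was tried on simulated counts, and the permutation test was checked on fixed sets of values with a known answer. Standard errors and 95% intervals were derived from the same fit. Single values per library were compared by exact permutation, and correlations used 100000 permutations. A further planned pair, mt-Co3 to mt-Atp6, could not be computed, because mt-Co3 had no count. Nuclear copies were found with BLAST 2.17.0, and windows were read on the GRCm39 reference. Alternatives were the quasi-likelihood test, DESeq2 1.42.0, other scalings, filters and denominators, a threshold of 0.05 and leaving out each library.

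Total counts were 11269915 to 34824450 per library, of which Rn18s-rs5 took 61.3% to 84.7%, so that totals alone did not set the precision. The floor of 3 counts equals 0.0679 to 0.362 CPM. Named were all mRNAs and rRNAs, the tRNAs that passed the filter or had the highest or lowest counts, the 3 genes of each companion list with the smallest p, Polrmt, Tfam, Lrpprc, Lars2, Taar5 and Rn18s-rs5. Gm28438, Gm10222, the other features of the copied segment, mt-Tf, mt-Te, mt-Tr, Mir6236 and Gm15564 were named after their values were seen. Members, lists and tests were chosen with earlier results of these data known.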

Additional observations from a re-analysis of the deposited data

Results flagged for a closer look

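The CPM of each gene tested, the pair ratios and the shares were examined per genotype label, as 40 groups of 6 values. Of these, 2 held a library far from the others of its group by Dixon's criterion. Chance alone flags about 5% of groups, so that the number flagged was no more than chance alone would give. Both flagged groups concern the ratio of mt-Rnr2 to mt-Rnr1 counts. In the libraries labelled TAAR5-KO, it was 3.70 in NK5, while the other 5 libraries had 1.34 to 2.09. In the libraries labelled WT, it was 2.62 in NK12, while the other 5 libraries had 1.58 to 1.70. NK5 and NK12 were also the libraries with the lowest ratio of mt-Rnr2 to mt-Nd1, 1.12 and 1.07, and with the largest part of mRNAs in the mitochondrial counts, 80.1% and 79.1%. These measures use the same mt-Rnr2 counts as the flagged ratio, and a cause was not tested.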

How the results depend on the processing

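No mitochondrial gene was called under any scaling, test, threshold or left-out library (0 to 0 calls without each library in turn). Without the filter on low values, 1 of 18 tested was called, mt-Nd3. All-feature calls were 229, against 63 by the quasi-likelihood test, 7 with library size only, 93 without a filter and 85 (without NK11) to 415 (without NK4) when a library was left out. The cause was not tested. With library size only, mt-Rnr1 and mt-Rnr2 reversed to -0.14 and -0.20. The 1 call in the companion lists became 0 by the quasi-likelihood test, with library size only, with ribosomal RNA features removed, without a filter and at 0.05, and 0 to 2 when a library was left out (2 without NK4 or NK9).

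Log2 differences of pair ratios without each library ran from -0.11 (without NK5, reversed) to 0.19 for mt-Rnr2 to mt-Rnr1, 0.042 to 0.75 for mt-Rnr2 to mt-Nd1, -0.016 (without NK12, reversed, as without NK2 with -0.0096) to 0.027 for mt-Cytb to mt-Nd1 and -0.18 to 0.010 (without NK9, reversed) for mt-Nd6 to mt-Cytb. Log2 fold changes of mt-Rnr2 ran from -0.047 (without NK1, reversed) to 0.98, of mt-Tn from -0.53 to 0.098 (reversed without NK9, and 0.091 without NK10), of mt-Nd6 from -0.32 to 0.023 and of mt-Cytb from -0.11 to 0.013, the last 2 reversed without NK9. Differences of shares, in percentage points, ran from -1.44 to -0.50 for mRNAs, -0.518 to -0.00432 for rRNAs, -0.00130 to -0.000732 for tRNAs and -1.64 to -0.696 for all. That of mRNAs was -1.85 of counts outside ribosomal RNA features and -1.92 also without Lars2 and some further features. It was -1.19 with Mir6236 and Gm15564 left out as well, and -1.14 of protein-coding counts without Lars2. The last 2 denominators were chosen after the data were seen. No paired analysis was possible because the columns carry numbers that no label ties to an animal.

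Of the 37 genes, 25 did not pass the filter. Whether the rRNAs differ by less than their intervals was not detectable with these libraries.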
